A study of Caenorhabditis elegans with 15 samples.

Results

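The 42 germline cell cycle and meiosis genes of *C. elegans* described here comprise 11 genes of DNA replication licensing and nucleotide supply, 10 of cyclins and cell cycle kinases, and 8 of the chromosome axis and synaptonemal complex. They further include 2 of pairing center proteins, 3 of meiotic cohesin, 5 of recombination and 3 regulators of germline stem cells. They were chosen by name, through the WormBase gene identifier, among the 20483 genes with a value, and all 42 were found. Messenger RNA was sequenced from whole nematodes of 3 strains grown at 20 °C, with 5 libraries each: *age-1(hx546); gas-1(fc21)* double mutants (*age-1; gas-1*), *gas-1(fc21)* mutants (*gas-1*) and wild type (wt). GAS-1 is a core subunit of mitochondrial complex I, and AGE-1 the catalytic subunit of the phosphoinositide 3-kinase of insulin/IGF signaling. Both mutant strains carry *gas-1(fc21)*, so the *age-1* allele was read only in that background, and no *age-1* single mutant was analysed here. Values are FPKM, fragment counts scaled for transcript length and library size, which allow levels to be compared between genes.

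In the hermaphrodite gonad, germline stem cells divide at the distal end, where Notch signals through GLP-1, and FBF proteins keep them from entering meiosis. Cells that leave this zone replicate their DNA a last time, pair and synapse homologous chromosomes, exchange strands and proceed to form oocytes after an earlier phase of sperm production. DNA replication and mitotic kinases serve the dividing stem cell pool, and their transcripts are also stored in oocytes for the cleavage divisions of the embryo. In adults most dividing cells are germ cells, so that transcripts of this kind in whole animals come largely from the germline. In whole animals, fewer germ cells and less RNA per germ cell cannot be told apart.

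Germline, oocyte and sperm transcripts were measured in every strain. The 18 germline markers include the germ granule genes of the *pgl* and *glh* families. They summed to between 1961 and 2081 FPKM in *age-1; gas-1*, 2186 and 2459 in *gas-1*, and 2899 and 3211 in wt libraries. These sums did not overlap between strains. The median log2(FPKM + 0.1) of the same 18 genes did overlap between all strains. It was 5.96 to 6.17 in *age-1; gas-1*, 5.97 to 6.18 in *gas-1* and 6.12 to 6.43 in wt libraries. Sperm transcripts set 4 libraries apart: *age-1; gas-1* replicates 2 and 5, *gas-1* replicate 2 and wt replicate 3. Summed over 44 sperm genes with a value, these held 42.6, 48.1, 48.6 and 30 FPKM in that order, against 166 to 222 in the other *age-1; gas-1*, 112 to 153 in the other *gas-1* and 215 to 477 in the other wt libraries. Among these wt libraries, replicate 5 was in between, with 215 FPKM against 447 to 477 in replicates 1, 2 and 4. It was not set apart. Sample labels give the stage as L4, whereas the only RNA extraction in the methods used young adults. FPKM hold no read totals. For genes undetected in part of the libraries, the detected values were set against the gene's median as a rough look at depth. Their medians lay between -0.29 and 0.41 on the log2 scale over the 15 libraries. The most common step lay between -0.25 and 0.15, in a bin with 8.72% to 21.8% of the values. Such values mix depth with differences in expression, so the value of 1 read was not determined.

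All 42 genes passed the filter on low values, 1 FPKM or more in 5 or more libraries, which left 11648 genes for limma on log2(FPKM + 0.1) at 5% false discovery rate (FDR). In *gas-1* mutants compared to wt, 23 of the 42 genes (54.8%) fell and 0 rose, whereas over all genes tested 24.6% fell and 44% rose. In double mutants compared to *gas-1*, 21 genes (50%) fell and 0 rose, against 19.5% of all genes that fell and 13.5% that rose. In double mutants compared to wt, 38 genes (90.5%) fell and 0 rose, against 31.2% of all genes that fell and 44.5% that rose. After quantile normalization 38% of all genes fell and 26.2% rose in *gas-1*, and 42.9% fell and 28.8% rose in double mutants, each compared to wt. After median-of-ratios scaling these shares were 34.7% and 36.4%, and 37.3% and 39.3%. The number of the 42 genes that fell in *gas-1* and in double mutants compared to wt was 29 and 38 after quantile normalization (medians -0.25 and -0.39) and 33 and 42 after median-of-ratios scaling (medians -0.31 and -0.46). At an unadjusted limma p under 0.05 the number that rose was also 0 in each comparison. The 4 genes past no threshold between double mutants and wt were *pcn-1*, *syp-1*, *syp-3* and *coh-4*, all 4 with a lower mean in double mutants. The changes were small: the median log2 fold change of the 42 genes was -0.19 in *gas-1* compared to wt, -0.18 in double mutants compared to *gas-1* and -0.34 in double mutants compared to wt. The medians over all genes tested were 0.14, -0.020 and 0.14.

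**Figure D1:**
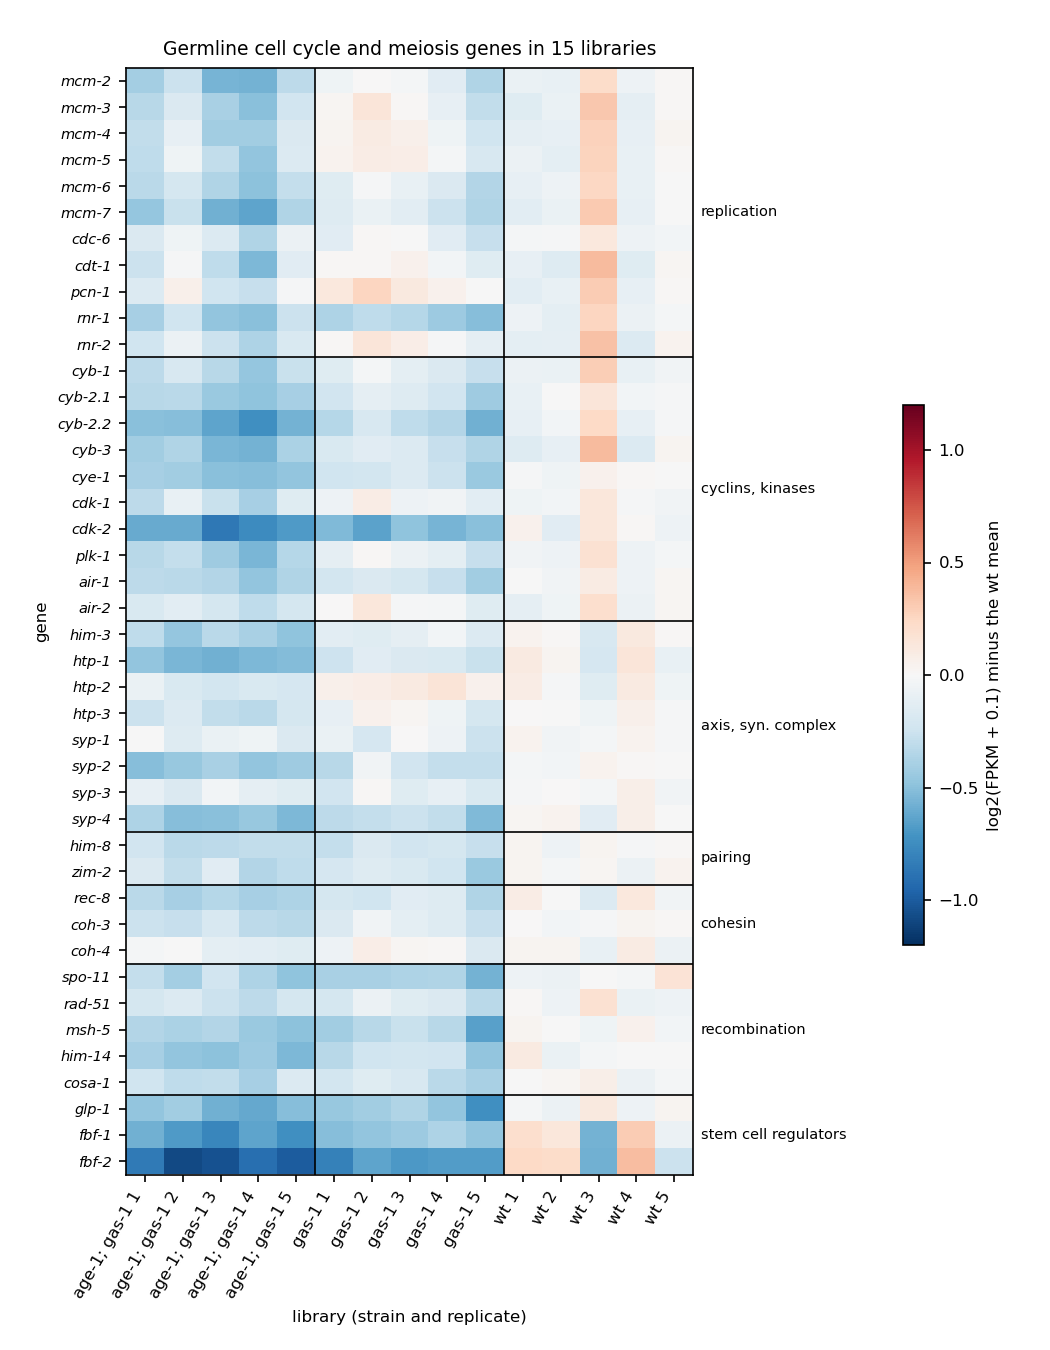
Each row is a gene and each column a library, ordered as *age-1; gas-1*, *gas-1* and wt, and the color gives log2(FPKM + 0.1) minus the gene's wt mean. The *age-1; gas-1* columns are lower than wt in nearly every row, while wt replicate 3 is high for replication and mitotic genes and low for *fbf-1* and *fbf-2*.

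All 5 *age-1; gas-1* libraries lay below all 5 wt libraries for 32 of the 42 genes, where 27% of all genes did so. All 5 *gas-1* libraries lay below all 5 wt libraries for 17 genes, against 18.8% of all genes. All 5 *age-1; gas-1* libraries lay below all 5 *gas-1* libraries for 7 genes (16.7%), close to the 15.7% of all genes: *plk-1*, *him-3*, *htp-1*, *htp-2*, *syp-2*, *fbf-1* and *fbf-2*. The comparisons share libraries, and so their counts are not independent of each other. Without the 4 libraries apart in sperm transcripts (an analysis added once the values were known), 25, 22 and 39 of the 42 genes fell, and 1 (*pcn-1*) rose in *gas-1* mutants compared to wt. These counts are for *gas-1* compared to wt, double mutants compared to *gas-1*, and double mutants compared to wt, where 27.9%, 18.5% and 30.8% of all genes fell and 46%, 13.9% and 45.5% rose.

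The fall between the mutants depended most on single libraries. Its count of 21 was 8 without *gas-1* replicate 2, 9 without the fourth *age-1; gas-1* replicate, 10 without *gas-1* replicate 3 and 11 without either *gas-1* replicate 1 or 4. It was 11 when the third and 13 when the first *age-1; gas-1* replicate was left out, and 13 after median-of-ratios scaling of all libraries. When 1 library was left out, the median log2 fold change of the 42 genes stayed between -0.23 and -0.16. Without *gas-1* replicate 2, the fourth *age-1; gas-1* replicate or *gas-1* replicate 3, 16.7%, 16.6% and 16.8% of all genes fell between the mutants. Only 8 genes kept this call in all 15 fits that left out 1 library: *mcm-2*, *cye-1*, *plk-1*, *him-3*, *htp-1*, *htp-2*, *htp-3* and *syp-2*. In *gas-1* mutants compared to wt 21 of the 23 calls were kept in all 15 such fits, the exceptions being *cyb-3* and *syp-3*, and in double mutants compared to wt 35 of the 38, the exceptions being *cdc-6*, *cdt-1* and *rnr-2*.

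**Figure D2:**
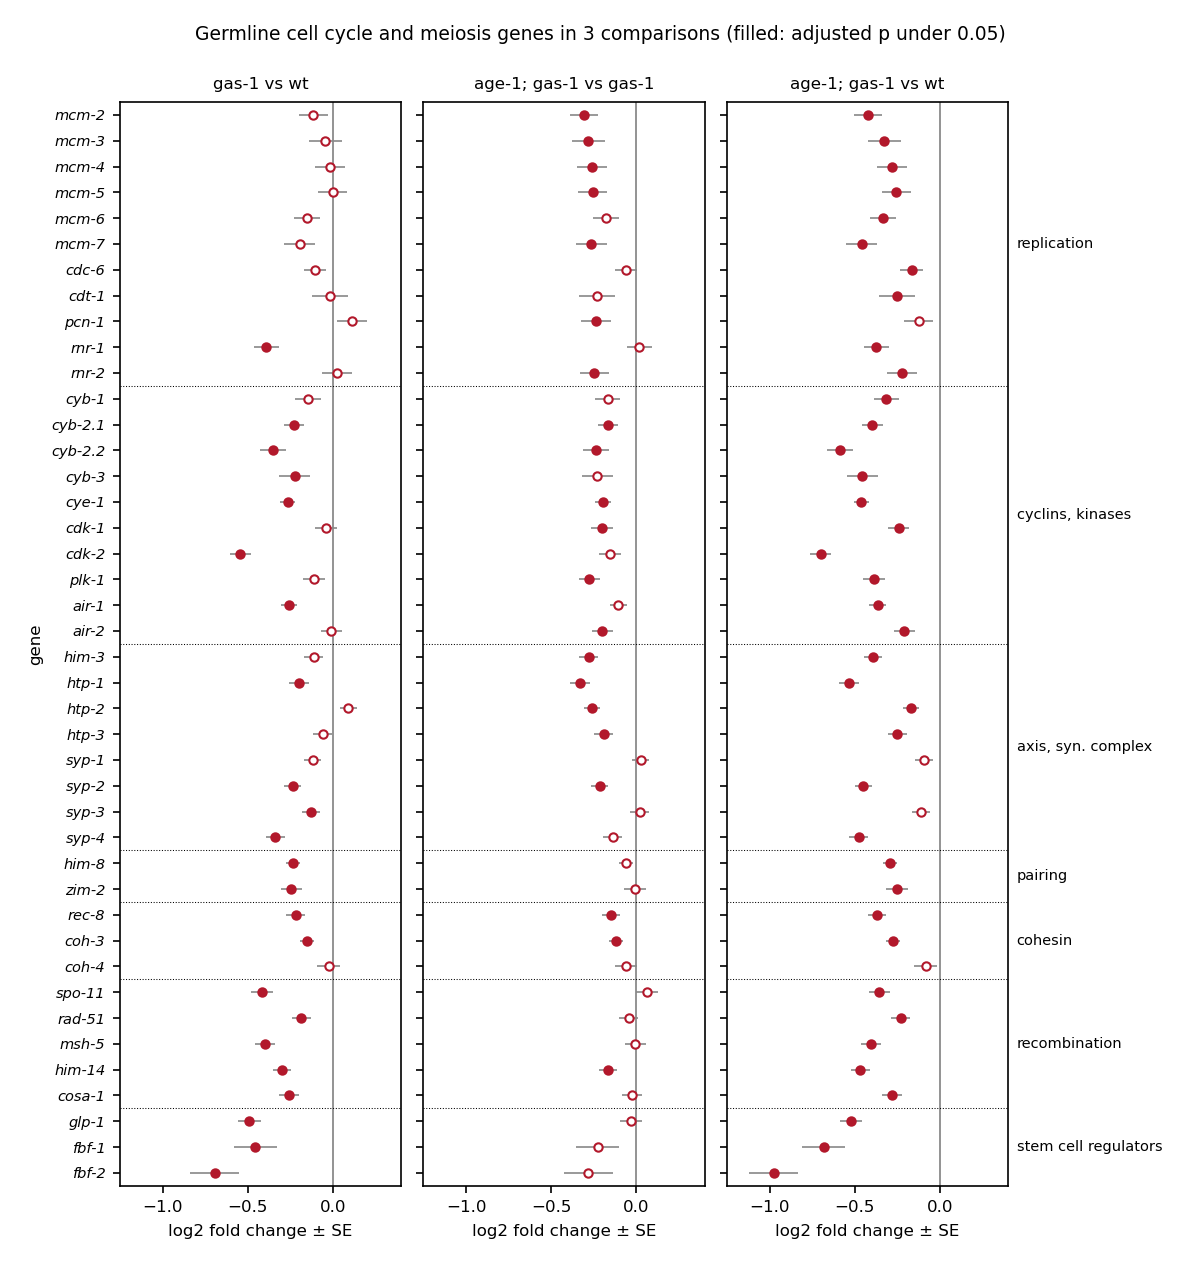
The log2 fold change of each gene is drawn with its SE in the 3 comparisons, filled where it passed 5% FDR. The replication genes other than *rnr-1* lie between -0.20 and 0.11 in *gas-1* compared to wt and below 0 in the comparison of the mutants, whereas the pairing, recombination and stem cell genes show the larger change in *gas-1* compared to wt.

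Transcripts for DNA replication were lower in double mutants than in wt, while their counts in the single steps depended on the scaling. The 6 MCM subunits, *mcm-2* to *mcm-7*, form the helicase that licenses and opens replication origins, *cdc-6* and *cdt-1* load it, *pcn-1* encodes the sliding clamp PCNA, and *rnr-1* and *rnr-2* the large and small subunits of ribonucleotide reductase. Of these 11 genes, 7 fell in double mutants compared to *gas-1* (median -0.25), 1 in *gas-1* compared to wt (median -0.044) and 10 in double mutants compared to wt (median -0.28). After median-of-ratios scaling 3, 5 and 11 of the 11 fell in these comparisons, after upper-quartile scaling 6, 4 and 10, and after quantile normalization 7, 3 and 8. The gene *mcm-2* (chromosome II, 12001509 to 12006625 of WBcel235) had 42.4, 46.9, 38.2, 37.9 and 45.3 FPKM in *age-1; gas-1* replicates 1 to 5, 54.3, 56.3, 55.2, 51.3 and 43.7 in *gas-1* and 53.2, 52.7, 65.6, 53.8 and 56.8 in wt. Double mutant libraries were below every wt library, while *gas-1* replicate 5 lay within the range of the double mutants. It fell by 0.31 on the log2 scale in double mutants compared to *gas-1* (SE 0.084, adjusted p = 0.0114) and by 0.42 compared to wt (SE 0.084, adjusted p = 0.000351), and differed by -0.11 between *gas-1* and wt (adjusted p = 0.237).

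Among the other MCM genes, the log2 fold changes between the mutants ran from -0.28 (*mcm-3*) to -0.18 (*mcm-6*, adjusted p = 0.0869), with *mcm-3*, *mcm-4*, *mcm-5* and *mcm-7* past the threshold. The most abundant of them, *mcm-5*, averaged 354 ± 38.5 FPKM in *age-1; gas-1*, 422 ± 32.1 in *gas-1* and 423 ± 48.3 in wt (SD, n = 5 each). The clamp gene *pcn-1* fell by 0.24 between the mutants (adjusted p = 0.0464), with means of 62.8 ± 6.40, 73.8 ± 5.06 and 68.6 ± 8.96 FPKM in *age-1; gas-1*, *gas-1* and wt. Of these 7 calls, *mcm-3*, *mcm-4* and *mcm-5* were lost when any one of *gas-1* replicates 1 to 4 or of *age-1; gas-1* replicates 1, 3 and 4 was left out (adjusted p up to 0.094), as were those of *pcn-1* and *rnr-2* (up to 0.115 and 0.103). The call of *pcn-1* was also lost without wt replicate 2, 4 or 5, and that of *rnr-2* without wt replicate 5 or the fifth *age-1; gas-1* replicate. Without wt replicate 3, *pcn-1* rose by 0.19 in *gas-1* compared to wt (adjusted p = 0.0283). That of *mcm-7* was lost without the same libraries except *gas-1* replicate 4 (up to 0.0914), and that of *mcm-2* was kept throughout.

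The subunits of ribonucleotide reductase differed. The large subunit *rnr-1* (chromosome III, 9225339 to 9228798) had 139, 156, 132, 129.6 and 154 FPKM in *age-1; gas-1*, 141.9, 149, 145, 136 and 129 in *gas-1* and 176, 169, 220.0, 175 and 181 in wt libraries. The libraries of both mutants overlapped each other and lay below all 5 wt libraries. It fell by 0.39 in *gas-1* compared to wt (SE 0.073, adjusted p = 0.000291) and differed by 0.018 between the mutants (adjusted p = 0.887). The small subunit *rnr-2* differed by 0.023 between *gas-1* and wt (adjusted p = 0.825) and fell by 0.25 between the mutants (adjusted p = 0.0422). The loading factors *cdc-6* and *cdt-1* passed the test only in double mutants compared to wt, with log2 fold changes of -0.17 (adjusted p = 0.0314) and -0.25 (adjusted p = 0.042). These 2 calls and that of *rnr-2* in this comparison were lost without wt replicate 3, where all 11 genes were higher than in every other wt library. Without it 7 of the 11 genes fell compared to wt, and adjusted p was 0.0767, 0.104 and 0.0611 for *cdc-6*, *cdt-1* and *rnr-2*. They were also lost when *age-1; gas-1* replicate 1, 3 or 4 was left out (adjusted p up to 0.0903, 0.119 and 0.0788 over all such fits), those of *cdt-1* and *rnr-2* without wt replicate 5 too, and that of *cdt-1* without *gas-1* replicate 1, 2 or 4. Without all 4 libraries apart in sperm transcripts, 11 of 11 fell compared to wt and 9 of 11 between the mutants.

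All 10 cyclin and kinase genes fell in double mutants compared to wt, and 6 of them in each of the single steps. The B-type cyclins *cyb-1*, *cyb-2.1*, *cyb-2.2* and *cyb-3* bind CDK-1 to drive division, *cye-1* encodes cyclin E, the partner of CDK-2 at the start of DNA synthesis, and *plk-1*, *air-1* and *air-2* encode a Polo-like kinase and the Aurora A and B kinases. Of the 10 genes, 6 fell in *gas-1* compared to wt (median -0.23), 6 in double mutants compared to *gas-1* (median -0.20) and 10 in double mutants compared to wt (median -0.39). Only *cyb-2.1*, *cyb-2.2* and *cye-1* passed the test in both steps. The largest change in this group was that of *cdk-2* (chromosome I, 3410013 to 3416368), which had 8.21, 8.21, 6.85, 7.37 and 7.76 FPKM in *age-1; gas-1*, 8.63, 7.98, 8.93, 8.44 and 8.80 in *gas-1* and 13, 11.3, 13.8, 12.6 and 12 in wt libraries. Each mutant library was below each wt library, and the 2 mutants overlapped. It fell by 0.54 in *gas-1* compared to wt (SE 0.063, adjusted p = 4.48e-06) and by 0.70 in double mutants compared to wt (SE 0.063, adjusted p = 2.05e-07). Its cyclin, *cye-1*, fell by 0.27 (adjusted p = 0.000143) and by 0.46 (adjusted p = 4.78e-07) in these comparisons, and by 0.20 between the mutants (adjusted p = 0.00453).

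The Polo-like kinase gene *plk-1* (chromosome III, 8101348 to 8104069) had 286, 294, 267, 247 and 284 FPKM in *age-1; gas-1*, 334, 364, 343, 331 and 298 in *gas-1* and 349, 345, 409, 346 and 355 in wt libraries. The 5 double mutant libraries were below all others, while *gas-1* replicate 2 lay within the range of wt. It fell by 0.28 between the mutants (SE 0.063, adjusted p = 0.00397) and differed by -0.11 between *gas-1* and wt (adjusted p = 0.132). Of the Aurora kinases, *air-1* fell by 0.26 in *gas-1* compared to wt (adjusted p = 0.000304), and *air-2* by 0.20 between the mutants (adjusted p = 0.0253). The gene *cdk-1* fell by 0.20 between the mutants (adjusted p = 0.0228), with 11.1 ± 0.966, 12.7 ± 0.724 and 13.1 ± 0.744 FPKM in *age-1; gas-1*, *gas-1* and wt.

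The near-copies *cyb-2.1* and *cyb-2.2* differed in level. The gene *cyb-2.2* (chromosome I, 4114861 to 4116370) had 217, 216, 199, 184 and 208 FPKM in *age-1; gas-1*, 243, 270.3, 249.8, 242 and 207 in *gas-1* and 289, 300.4, 364, 288 and 306 in wt libraries. The gene *cyb-2.1* (chromosome IV, 10985985 to 10987426) had 30.6, 30.6, 28.2, 27.5 and 29.1 in *age-1; gas-1*, 32.8, 35.7, 34.4, 32.7 and 28.5 in *gas-1* and 36.1, 38.2, 42.4, 37.5 and 38.1 in wt libraries. Both mutants were below all wt libraries for each gene. The ratio of *cyb-2.1* to *cyb-2.2* averaged 0.142 ± 0.00373 in *age-1; gas-1*, 0.136 ± 0.00233 in *gas-1* and 0.125 ± 0.00515 in wt. Reads shared by near-identical copies can be split between them in counting, so the values of such pairs are uncertain. The cyclins *cyb-3* and *cyb-1* were the most abundant of the 42 genes, at 596 ± 40.1 and 543 ± 37 FPKM in *age-1; gas-1* and 824 ± 139.7 and 678 ± 82.5 FPKM in wt. For *cyb-3* the fall by 0.23 in *gas-1* compared to wt (adjusted p = 0.0395) was lost without replicate 3 or 5 of wt or replicate 1, 4 or 5 of *gas-1* (adjusted p up to 0.0963). Between the mutants, the calls of *cyb-2.1* and *cyb-2.2* (adjusted p = 0.0439 and 0.0266) were lost without any of *gas-1* replicates 1 to 4 or the third or the fourth *age-1; gas-1* replicate, and that of *cyb-2.1* also without the fifth or wt replicate 2, 4 or 5 (adjusted p up to 0.113 and 0.0736). Those of *cdk-1* and *air-2* were lost without *gas-1* replicate 2 or the fourth *age-1; gas-1* replicate, and that of *cdk-1* also without the first (up to 0.0629 and 0.0692). Without the 4 libraries apart in sperm transcripts the call of *cyb-2.1* was lost (adjusted p = 0.0807), and *cyb-1*, *cyb-3* and *cdk-2* also fell between the mutants.

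**Figure D3:**
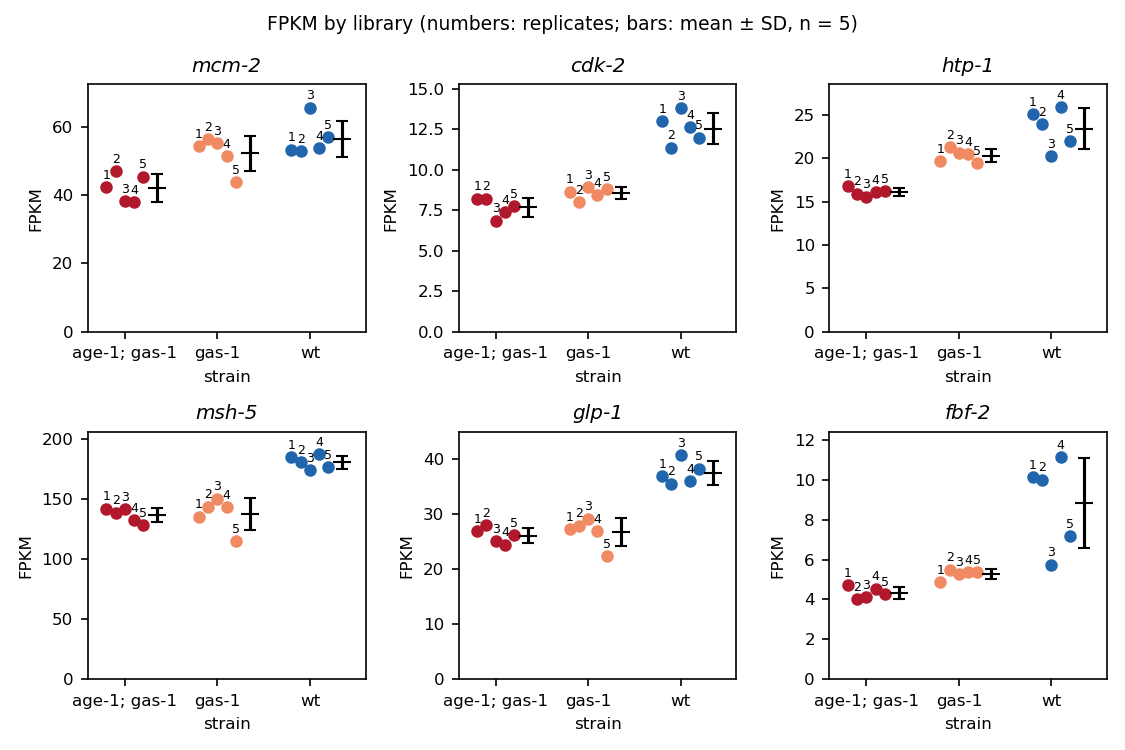
FPKM of *mcm-2*, *cdk-2*, *htp-1*, *msh-5*, *glp-1* and *fbf-2* is plotted for each library by strain, with replicate numbers, and bars give the mean ± SD of 5 libraries. Both mutants lie well below wt for *cdk-2*, *msh-5* and *glp-1*, the 3 strains separate in steps for *htp-1* apart from wt replicate 3, and wt spreads widely for *fbf-2*.

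Axis genes fell between the mutants, whereas synaptonemal complex genes differed among themselves. The HORMA domain proteins HIM-3, HTP-1, HTP-2 and HTP-3 build the axis of meiotic chromosomes, and SYP-1 to SYP-4 the central region that holds homologs together. All 4 axis genes fell in double mutants compared to *gas-1*, by 0.19 (*htp-3*, adjusted p = 0.0173) to 0.33 (*htp-1*), and so did 1 of the 4 *syp* genes. The gene *htp-1* (chromosome IV, 5390189 to 5391557) had 16.8, 15.9, 15.6, 16.1 and 16.2 FPKM in *age-1; gas-1*, 19.7, 21.3, 20.6, 20.5 and 19.4 in *gas-1* and 25.13, 24, 20.2, 25.9 and 22 in wt libraries. Double mutants were below all *gas-1* and wt libraries, and only wt replicate 3 overlapped *gas-1*. It fell by 0.20 in *gas-1* compared to wt (SE 0.059, adjusted p = 0.00758), by 0.33 between the mutants (SE 0.059, adjusted p = 0.000681) and by 0.53 in double mutants compared to wt (adjusted p = 1.45e-06).

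Its near-copy *htp-2* (chromosome IV, 6419522 to 6420898) did not follow it in the first step. It had 18.4, 17.2, 16.7, 17.2 and 16.9 FPKM in *age-1; gas-1*, 20.3, 20.6, 20.9, 21.6 and 20.2 in *gas-1* and 20.7, 19.3, 17.6, 21 and 18.8 in wt libraries. Double mutants lay below all *gas-1* libraries, *gas-1* overlapped wt, and of the double mutants only replicate 1 reached the lowest wt library. The gene fell by 0.26 between the mutants (SE 0.048, adjusted p = 0.000928) and differed by 0.091 between *gas-1* and wt (adjusted p = 0.109), a difference that passed the threshold without wt replicate 4 (adjusted p = 0.0439). The ratio of *htp-1* to *htp-2* averaged 0.933 ± 0.0165 in *age-1; gas-1*, 0.981 ± 0.0326 in *gas-1* and 1.201 ± 0.0398 in wt (SD, n = 5 each). It was at most 0.957 in *age-1; gas-1* and 1.03 in *gas-1* libraries, and at least 1.15 in wt libraries. Of the remaining axis genes, *him-3* fell by 0.28 between the mutants (adjusted p = 0.00142) and averaged 46 ± 2.56, 55.8 ± 2.04 and 60.5 ± 4.78 FPKM in *age-1; gas-1*, *gas-1* and wt.

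In the central region, *syp-2* and *syp-4* fell, whereas the calls of *syp-1* and *syp-3* depended on the scaling and the libraries. The gene *syp-4* (chromosome I, 6847511 to 6849923) had 46.5, 42.2, 42.5, 43.9 and 41.5 FPKM in *age-1; gas-1*, 48.4, 49.3, 50.2, 49.2 and 41.6 in *gas-1* and 61.4, 61.9, 54.8, 63.2 and 60.2 in wt libraries. All wt libraries were above all mutant libraries. It fell by 0.34 in *gas-1* compared to wt (SE 0.055, adjusted p = 9.05e-05). The gene *syp-2* (chromosome V, 5536487 to 5537717) had 13.7, 14.2, 14.8, 14.1 and 14.5 FPKM in *age-1; gas-1*, 15.5, 18.9, 16.6, 15.9 and 16 in *gas-1* and 19.3, 19, 20.1, 19.7 and 19.5 in wt libraries. The 3 strains did not overlap for this gene, which fell by 0.24 in *gas-1* compared to wt (adjusted p = 0.000727) and by 0.21 between the mutants (adjusted p = 0.0041). By contrast *syp-1* averaged 23.9 ± 1.17, 23.5 ± 1.76 and 25.5 ± 0.722 FPKM and *syp-3* 5.96 ± 0.234, 5.89 ± 0.396 and 6.44 ± 0.204 FPKM in *age-1; gas-1*, *gas-1* and wt. Only *syp-3* passed a test, with a fall by 0.13 in *gas-1* compared to wt (adjusted p = 0.0443), a call lost in 10 of the 15 fits that left out 1 library, those without replicate 1, 3, 4 or 5 of *gas-1*, replicate 1, 2 or 4 of wt, or replicate 1, 4 or 5 of the double mutants (adjusted p up to 0.116). The log2 fold change of *syp-1* in *gas-1* compared to wt, -0.12, passed after median-of-ratios scaling (-0.24, adjusted p = 0.00136), upper-quartile scaling (-0.15, adjusted p = 0.0213) and quantile normalization (-0.22, adjusted p = 0.0038), and also with a filter at 5 FPKM, with the replicate block and without *gas-1* replicate 3 or 4 (adjusted p between 0.0178 and 0.0488). In double mutants compared to wt both genes passed after median-of-ratios scaling (-0.21 and -0.23, adjusted p = 0.00313 and 0.00187 for *syp-1* and *syp-3*) and quantile normalization (-0.19 and -0.52, adjusted p = 0.00786 and 4.95e-06). There *syp-3* also passed without a variance trend and without *gas-1* replicate 2 (adjusted p = 0.0496 and 0.0491). In the annotation 16.9% of the exon bases of *syp-1* overlap the gene F13A7.14 on the same strand, so its values are uncertain. A share of 6.53% of those of *syp-3* overlaps *mrt-1* on the other strand. This makes *syp-3* uncertain only if counting did not keep the strands apart, which was not tested.

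Pairing center genes fell in *gas-1* compared to wt and limma called 0 of them between the mutants, also 0 at an unadjusted p under 0.05. The zinc finger proteins HIM-8 and ZIM-2 bind the pairing centers of chromosomes X and V. The gene *him-8* (chromosome IV, 10561905 to 10563974) had 7.75, 7.26, 7.33, 7.40 and 7.42 FPKM in *age-1; gas-1*, 7.49, 8.09, 7.79, 7.88 and 7.54 in *gas-1* and 9.36, 8.73, 9.33, 9.04 and 9.20 in wt libraries. The wt libraries lay above both mutants, which overlapped. It fell by 0.23 in *gas-1* compared to wt (SE 0.040, adjusted p = 0.000161) and by 0.29 in double mutants compared to wt (adjusted p = 1.25e-05). Close by on the same chromosome, *zim-2* (chromosome IV, 10555247 to 10558225) fell by 0.24 (adjusted p = 0.00386) and 0.25 (adjusted p = 0.00255). A share of 9.46% of its exon bases overlaps *zim-1* on the same strand, which has a higher level (52.8 FPKM over all libraries, against 5.86 for *zim-2*).

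Of the meiotic cohesin genes, *rec-8* and *coh-3* fell, and *coh-4* passed the test only after other scaling. They encode the kleisin subunits that close the cohesin ring around sister chromatids in meiosis. The gene *rec-8* (chromosome IV, 13349122 to 13353193) had 108, 103, 106, 103 and 105 FPKM in *age-1; gas-1*, 117, 115, 123, 122 and 106 in *gas-1* and 144, 135, 121, 148 and 132 in wt libraries. Double mutants were below all wt libraries, and each strain overlapped its neighbor. It fell by 0.22 in *gas-1* compared to wt (adjusted p = 0.00212) and by 0.37 in double mutants compared to wt (SE 0.053, adjusted p = 1.87e-05). The gene *coh-3* (chromosome V, 14457422 to 14460141) had 53.4, 52.6, 55.9, 51.4 and 50.6 FPKM in *age-1; gas-1*, 56.4, 62, 58.7, 57.4 and 52.5 in *gas-1* and 63.8, 62.2, 63.3, 65.2 and 64.5 in wt libraries, with wt above both mutants. It fell by 0.15 in *gas-1* compared to wt (adjusted p = 0.00411) and by 0.27 in double mutants compared to wt (adjusted p = 2.87e-05).

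Its near-copy *coh-4* (chromosome V, 4169912 to 4175640), the least abundant of the 42, had 2.99, 3.04, 2.80, 2.79 and 2.74 FPKM in *age-1; gas-1*, 2.91, 3.22, 3.10, 3.08 and 2.70 in *gas-1* and 3.12, 3.11, 2.85, 3.28 and 2.90 in wt libraries. All strains overlapped, and the log2 fold change between double mutants and wt was -0.084 (SE 0.067, adjusted p = 0.263). In this comparison it passed after median-of-ratios scaling (-0.20, adjusted p = 0.0251) and quantile normalization (-0.64, adjusted p = 2.24e-05), and after the second of these also in *gas-1* compared to wt (-0.47, adjusted p = 0.000567). Its exons share 15.9% of their bases with Y45G5AM.7 on the same strand. The ratio of *coh-3* to *coh-4* averaged 18.4 ± 0.994 in *age-1; gas-1*, 19.1 ± 0.355 in *gas-1* and 20.9 ± 1.18 in wt. Between the mutants, *rec-8* and *coh-3* fell by 0.15 and 0.12 (adjusted p = 0.0421 and 0.0372). These calls were lost in 11 and 8 of the 15 fits that left out 1 library, in both cases without any of *gas-1* replicates 1 to 4 or *age-1; gas-1* replicates 1, 2, 4 and 5, and for *rec-8* also without the third of the double mutants or wt replicate 2 or 5 (adjusted p up to 0.103 and 0.0968). Without the 4 libraries apart in sperm transcripts neither was past the threshold (adjusted p = 0.0829 and 0.278). Both calls were also lost after median-of-ratios scaling, upper-quartile scaling and quantile normalization (adjusted p up to 0.143 and 0.0765).

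All 5 recombination genes fell in *gas-1* compared to wt, and 4 of them passed no test between the mutants. SPO-11 makes the double-strand breaks that start meiotic recombination, RAD-51 carries out strand exchange, MSH-5 and the MSH-4 ortholog HIM-14 stabilize crossover intermediates, and COSA-1 marks crossover sites. The median log2 fold change was -0.30 in *gas-1* compared to wt, -0.027 between the mutants and -0.36 in double mutants compared to wt. The gene *msh-5* (chromosome IV, 13155233 to 13164054) had 141.9, 139, 141, 132 and 128 FPKM in *age-1; gas-1*, 135, 143, 150.4, 143 and 115 in *gas-1* and 185, 181, 174, 187 and 177 in wt libraries. The wt libraries lay above all mutant libraries, and *gas-1* replicate 5 was the lowest. It fell by 0.40 in *gas-1* compared to wt (SE 0.060, adjusted p = 4.67e-05) and differed by -0.0058 between the mutants (SE 0.060, adjusted p = 0.957).

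The gene *him-14* (chromosome II, 7065020 to 7069966) had 12.7, 12, 11.8, 12.4 and 11.5 FPKM in *age-1; gas-1*, 13.2, 14.2, 14.3, 14.2 and 12 in *gas-1* and 18, 15.8, 16.4, 16.7 and 16.7 in wt libraries. It was lower in every mutant library than in every wt library, and *gas-1* replicate 5 lay within the double mutants. It fell by 0.30 in *gas-1* compared to wt (adjusted p = 0.000218), by 0.17 between the mutants (adjusted p = 0.0273) and by 0.47 in double mutants compared to wt (SE 0.054, adjusted p = 2.23e-06). The call between the mutants was lost when replicate 2, 3 or 4 of *gas-1* or replicate 2, 3 or 5 of the double mutants was left out (adjusted p up to 0.0705), and missed the threshold (adjusted p = 0.2) without the 4 libraries apart in sperm transcripts. Its exons overlap *nos-2* on the other strand over 5.86% of their bases. In *gas-1* compared to wt, *spo-11* fell by 0.42 (adjusted p = 5.45e-05), *cosa-1* by 0.26 (adjusted p = 0.00146) and *rad-51* by 0.18 (adjusted p = 0.00968). The exons of *cosa-1* overlap Y71H2AM.12 on the other strand over 14% of their bases. The 3 genes averaged 6.44 ± 0.45, 6.57 ± 0.402 and 50.3 ± 2.05 FPKM in *age-1; gas-1* and 8.26 ± 0.563, 8.0 ± 0.287 and 59.1 ± 4.70 FPKM in wt. A share of 1.61% of the exon bases of *spo-11* overlaps *enpl-1* on the other strand. The level of *enpl-1* was higher (482 FPKM over all libraries, against 6.95 for *spo-11*).

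The regulators of germline stem cells had the largest median falls compared to wt. GLP-1 is the Notch receptor that keeps germ cells dividing, and FBF-1 and FBF-2 are RNA-binding proteins of the Pumilio family that repress mRNAs of meiotic entry. The 3 genes fell in *gas-1* compared to wt (median -0.49) and in double mutants compared to wt (median -0.68). Between the mutants (median -0.23) limma called 0 of them in the main fit, also 0 at an unadjusted p under 0.05. Calls of *fbf-1* and *fbf-2* between the mutants depended on the setting, as given below. The gene *glp-1* (chromosome III, 9092241 to 9099698) had 26.8, 28, 25, 24.4 and 26.1 FPKM in *age-1; gas-1*, 27.2, 27.9, 29.2, 26.9 and 22.4 in *gas-1* and 36.8, 35.5, 40.7, 35.9 and 38.3 in wt libraries. The mutants overlapped, and both lay below all wt libraries. It fell by 0.49 in *gas-1* compared to wt (SE 0.066, adjusted p = 1.61e-05) and by 0.52 in double mutants compared to wt (adjusted p = 5.38e-06), and differed by -0.030 between the mutants (adjusted p = 0.778).

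The near-copies *fbf-1* (chromosome II, 6078263 to 6080843) and *fbf-2* (chromosome II, 6088863 to 6091480) lie close together. For *fbf-2* the values were 4.72, 3.99, 4.11, 4.53 and 4.24 FPKM in *age-1; gas-1*, 4.86, 5.48, 5.28, 5.37 and 5.35 in *gas-1* and 10.1, 10, 5.74, 11.1 and 7.18 in wt libraries. Wild type spread widely, with replicate 3 close to the *gas-1* libraries, yet the 3 strains did not overlap. It fell by 0.69 in *gas-1* compared to wt (SE 0.14, adjusted p = 0.000676) and by 0.98 in double mutants compared to wt (SE 0.14, adjusted p = 2.4e-05), the largest change among the 42 genes. For *fbf-1* they were 3.14, 2.92, 2.71, 3.03 and 2.81 FPKM in *age-1; gas-1*, 3.29, 3.38, 3.47, 3.64 and 3.38 in *gas-1* and 5.46, 5.21, 3.17, 5.87 and 4.52 in wt libraries. Here wt replicate 3 was below all *gas-1* libraries, and all double mutant libraries were below all others. It fell by 0.46 in *gas-1* compared to wt (adjusted p = 0.00565) and by 0.68 in double mutants compared to wt (adjusted p = 0.000209). Between the mutants the log2 fold changes were -0.23 and -0.28 for *fbf-1* and *fbf-2* (adjusted p = 0.192 and 0.151). Without wt replicate 3 both passed the threshold (adjusted p = 0.0225 and 0.0355). Both also passed when only the 2 strains were compared (adjusted p = 0.0171 and 0.0055) and after quantile normalization (adjusted p = 0.0351 and 0.0419). Neither passed after median-of-ratios or upper-quartile scaling, with the replicate block, or without the 4 libraries apart in sperm transcripts. The ratio of *fbf-1* to *fbf-2* averaged 0.677 ± 0.0304 in *age-1; gas-1*, 0.652 ± 0.0276 in *gas-1* and 0.554 ± 0.0444 in wt.

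The change in the second step, double mutants compared to *gas-1*, was set against that in the first, *gas-1* compared to wt, by a contrast added once the values were known. Over all genes tested, the second minus the first was higher at 5% FDR for 10.8% and lower for 26.1%, with a median of -0.14. Among the 42 genes it was higher for 5 (11.9%), close to the share of all genes, and lower for 1 (2.38%), with a median of 0.041. The *gas-1* libraries enter both steps, so a low *gas-1* mean by itself raises this difference. The 5 genes fell in *gas-1* compared to wt: *spo-11* (difference 0.48, SE 0.11, adjusted p = 0.00399), *glp-1* (0.46, adjusted p = 0.00593), *rnr-1* (0.41, adjusted p = 0.0203), *msh-5* (0.39, adjusted p = 0.00898) and *cdk-2* (0.39, adjusted p = 0.0135). The gene with a lower difference was *htp-2* (-0.35, adjusted p = 0.00475). No MCM gene passed this test, so their fall was not shown to differ between the steps. With the 4 libraries apart in sperm transcripts left out, 6 were higher and 7 lower, against 14.1% and 31.1% of all genes. The lower ones were *htp-2*, *mcm-4*, *mcm-5*, *cdt-1*, *pcn-1*, *rnr-2* and *cdk-1*, the higher ones *spo-11*, *glp-1*, *rnr-1*, *msh-5*, *fbf-2* and *syp-4*, and *cdk-2* no longer passed (0.26, adjusted p = 0.0882). Without wt replicate 3 alone the counts were 8 and 4, against 11.8% and 31.6% of all genes. After median-of-ratios scaling they were 12 and 0 (17.9% and 19.3% of all genes), after quantile normalization 10 and 0 (18.9% and 16.6%) and after upper-quartile scaling 10 and 1 (15.9% and 22.6%), and the median over all genes was -0.0097, 0.024 and -0.077 in that order.

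Within strains, the libraries apart in sperm transcripts also differed in the 42 genes. Compared to the other wt libraries, wt replicate 3 was above all of them for 11 of 11 replication genes (median difference 0.35 on the log2 scale) and 10 of 10 cyclin and kinase genes (median 0.20). It was below all of them for 5 of 8 axis and synaptonemal complex genes (median -0.12) and for *fbf-1* and *fbf-2* (-0.71 and -0.72). In replicates 2 and 5 of *age-1; gas-1*, which were set against the other 3, the replication genes were again higher in 11 of 11 cases each, by medians of 0.25 and 0.19, and the axis and synaptonemal complex genes lower in 4 of 8 each. In *gas-1* replicate 2, 10 of 11 replication genes and 8 of 10 cyclin and kinase genes were above the other 4 libraries, with medians of 0.15 and 0.15, and no axis or synaptonemal complex gene was below them all. The same libraries had more oocyte transcripts, by medians over 21 genes of 0.17 and 0.12 in replicates 2 and 5 of the double mutants, 0.19 in *gas-1* replicate 2 and 0.29 in wt replicate 3. Embryo markers were higher too, with medians over the 6 tested of 0.39 and 0.38 in replicates 2 and 5 of the double mutants, 0.16 in *gas-1* replicate 2 and 0.89 in wt replicate 3, and 6, 6, 5 and 6 of the 6 were above the other libraries. Markers of body wall muscle and intestine had lower medians. In double mutants these were -0.10 and -0.062 in replicate 2 and -0.13 and -0.15 in replicate 5. They were -0.18 and -0.20 in *gas-1* replicate 2 and -0.64 and -0.53 in wt replicate 3. Somatic gonad and neuron medians were -0.019 and 0.045 in replicate 2 and 0.015 and -0.082 in replicate 5 of the double mutants. In *gas-1* replicate 2 they were -0.12 and -0.16, and in wt replicate 3 -0.14 and -0.32. Over all genes tested, the share above the libraries of the same strain that did not stand apart was 35.4% and 27.3% in replicates 2 and 5 of the double mutants, 25.7% in *gas-1* replicate 2 and 38.3% in wt replicate 3, and the share below them was 31.2%, 35.8%, 29% and 36.8%. The part of embryo and somatic transcripts in the values of these libraries was not tested.

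**Figure D4:**
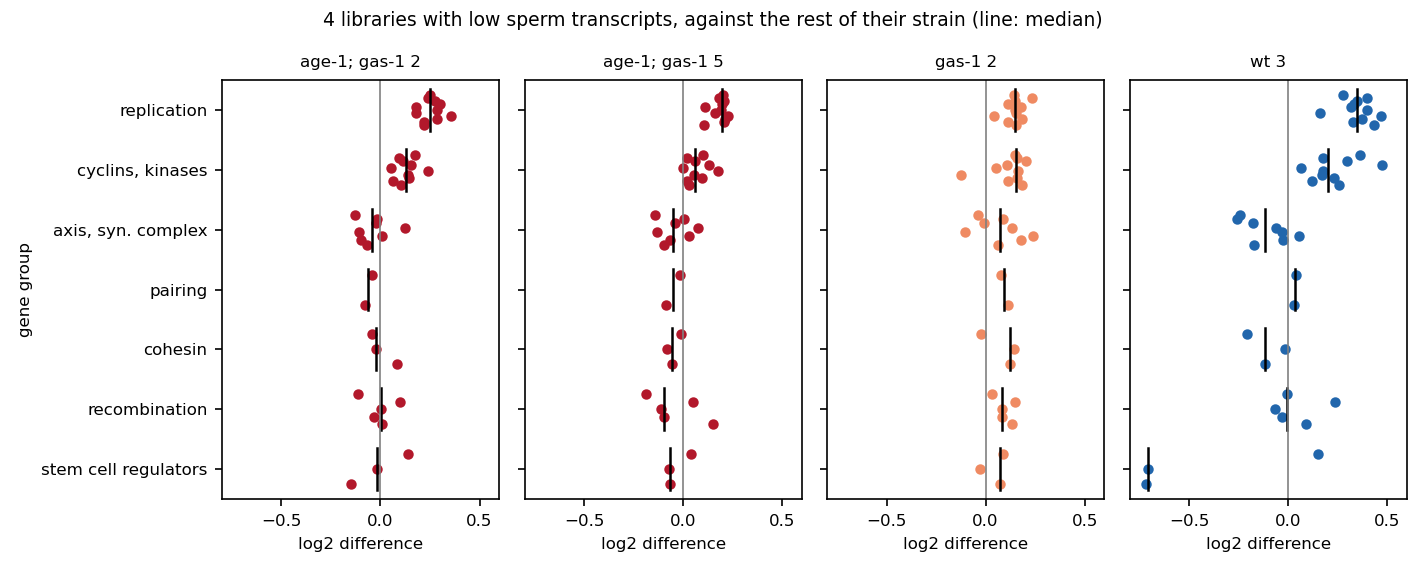
For the 4 libraries with low sperm transcripts, each point is a gene's log2(FPKM + 0.1) minus its mean over the libraries of that strain that do not stand apart, by gene group, with the median as a line. Replication genes sit above 0 in all 4 libraries, and *fbf-1* and *fbf-2* sit near -0.7 in wt replicate 3.

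Most other genes of the same processes that passed the test also fell. Over all genes tested, 24.6% fell in *gas-1* compared to wt, 19.5% between the mutants and 31.2% in double mutants compared to wt. In *gas-1* compared to wt, 8 of 27 further replication genes fell and 1 rose. Of the same 27, 14 fell in double mutants compared to *gas-1*, and 21 fell and 1 rose in double mutants compared to wt. The smallest adjusted p between the mutants belonged to *orc-4* and *orc-1*, subunits of the origin recognition complex. The gene *orc-1* averaged 70.8 ± 3.18 FPKM in *age-1; gas-1*, 90.7 ± 7.56 in *gas-1* and 112 ± 3.49 in wt, and fell by 0.35 between the mutants (adjusted p = 0.000182). The exception was *tyms-1*, which encodes thymidylate synthase and rose by 0.76 in *gas-1* compared to wt (adjusted p = 8.79e-06). Of 59 further mitosis genes tested, 25 fell and 2 rose in *gas-1* compared to wt. Of the same 59, 22 fell between the mutants and 50 fell and 2 rose in double mutants compared to wt. The kinesin gene *klp-18*, which acts in the acentrosomal spindle of oocytes, averaged 149.7 ± 4.62 FPKM in *age-1; gas-1*, 168 ± 12.6 in *gas-1* and 217 ± 8.02 in wt. The inhibitor gene *cki-2*, of the CIP/KIP family, fell by 0.31 between the mutants (adjusted p = 5.03e-05).

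Of 47 further meiosis genes, 33 fell and 1 rose in *gas-1* compared to wt, 18 fell between the mutants, and 40 fell and 1 rose in double mutants compared to wt. The Polo-like kinase gene *plk-3* fell by 0.43 in *gas-1* compared to wt (adjusted p = 1.91e-07), and *cra-1*, which acts in synaptonemal complex assembly, by 0.41 (adjusted p = 1.98e-06). Between the mutants *dsb-1*, needed for double-strand break formation, fell by 0.27 (adjusted p = 7.44e-05). Of 18 further genes of germline proliferation and meiotic entry, 13 fell and 2 rose in *gas-1* compared to wt, 8 fell and 1 rose between the mutants, and 13 fell and 1 rose in double mutants compared to wt. Among them *nos-3*, of the Nanos family, averaged 125 ± 4.58 FPKM in *age-1; gas-1*, 150.5 ± 10.7 in *gas-1* and 203 ± 9.82 in wt. The translational repressor gene *gld-1*, which promotes meiotic entry, averaged 1582 ± 52.7 in *age-1; gas-1*, 1972 ± 139.7 in *gas-1* and 2516 ± 87.1 in wt.

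Most markers of the germline fell in each comparison and most oocyte markers in double mutants compared to either strain, and more markers of somatic tissues rose than fell compared to wt. Of 18 germline markers 15 fell and 1 rose in *gas-1* compared to wt (median -0.32), and 11 fell and 1 rose between the mutants (median -0.22). In double mutants compared to wt 16 fell, with a median of -0.54. Of 21 oocyte markers 9 fell and 12 passed no test in *gas-1* compared to wt (median -0.16). Of the same 21, 12 fell and 2 rose between the mutants (median -0.25), and 18 fell and 2 rose in double mutants compared to wt (median -0.43). In *gas-1* compared to wt the somatic markers that passed the test had all risen, 5 of 7 of the intestine, 6 of 7 of neurons, 6 of 6 of the somatic gonad and 4 of 8 of body wall muscle. In double mutants compared to wt 5, 6, 4 and 4 of them rose. Over all genes tested, 44% rose in *gas-1* and 44.5% in double mutants, each compared to wt. The shares of body wall muscle markers, and of the embryo markers below, were close to these. The summed level of 7 intestine markers was 853 to 1020.0 FPKM in *age-1; gas-1*, 825 to 1090.0 in *gas-1* and 503 to 807 in wt libraries. That of 8 neuron markers was 154 to 169 in *age-1; gas-1*, 141.9 to 158 in *gas-1* and 111 to 122 in wt libraries. For 8 somatic gonad markers the sums were 200 to 220, 197 to 214 and 146 to 154.5 in the same order. Those of 8 body wall muscle markers overlapped between all strains, at 1949 to 2253, 1856 to 2268 and 1414 to 2193. Replicate 3 held the lowest wt value, and the other wt libraries had 1967 to 2193. Of 6 embryo markers tested, 3 rose in *gas-1* compared to wt (median 0.44), 1 fell between the mutants (median 0.11) and 3 rose and 1 fell in double mutants compared to wt (median 0.53). Their summed level, over 12 genes with a value, was 104 to 135 FPKM in *age-1; gas-1*, 121 to 136 in *gas-1* and 108 to 153.5 in wt libraries, with the highest wt value in replicate 3. Since FPKM are shares of a library, germline and somatic transcripts set each other's values, and the part of the somatic and embryo transcripts in the fall of the 42 genes was not tested. Of 26 sperm genes tested 1, *spe-44*, passed the test in either mutant compared to wt, falling in both, and their medians were -1.28 in *gas-1* compared to wt, 0.13 between the mutants and -1.26 in double mutants compared to wt. The part of sperm transcripts in the fall of the 42 genes was not tested beyond the counts without the 4 libraries.

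**Figure D5:**
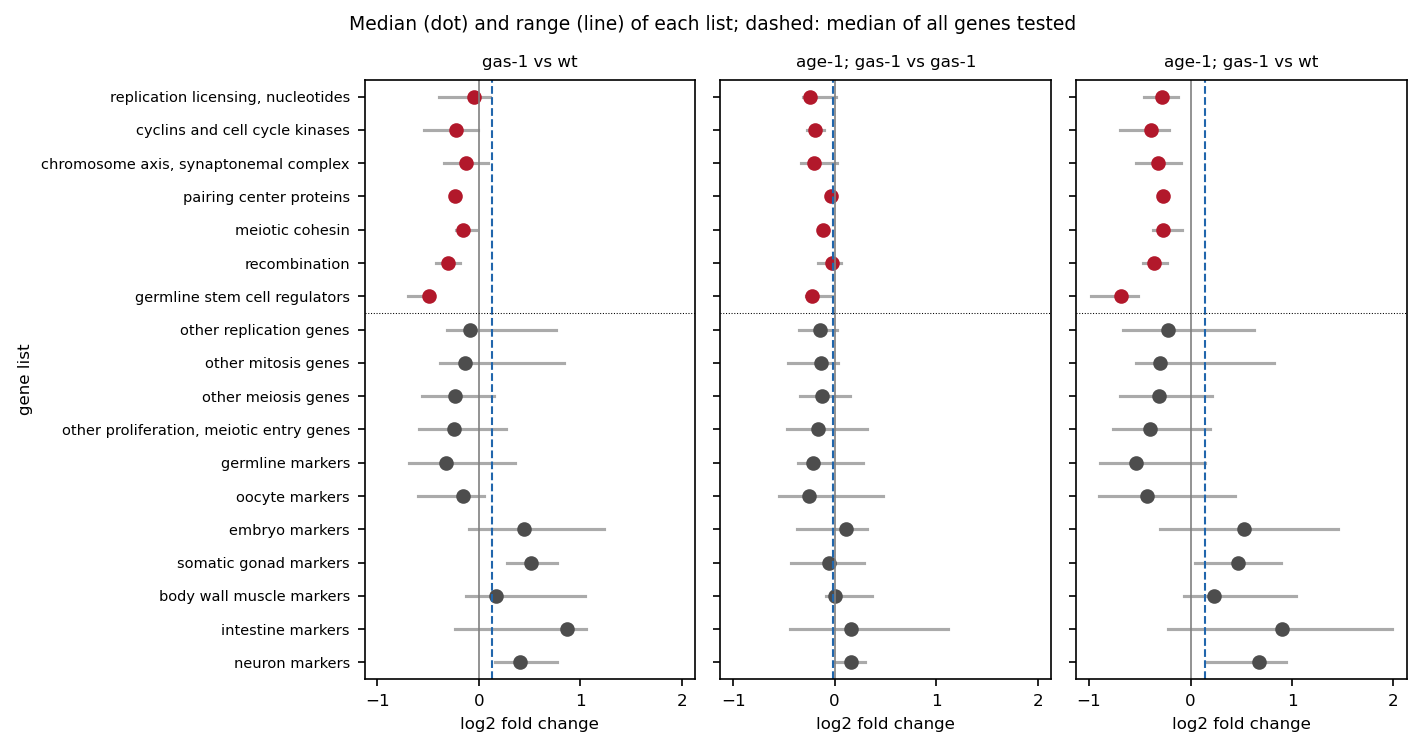
Dots give the median and lines the range of the log2 fold changes of each list in the 3 comparisons, with the 7 groups of the 42 genes above the dotted line and the other lists below it, and a dashed line at the median of all genes tested. In the comparisons with wt the medians of the germline lists lie left of the dashed line, and those of the intestine and neuron lists right of it.

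None of the 42 genes lies on chromosome X, which holds 14.1% of the tested genes with a position in WBcel235. Chromosome IV holds 12 of them (28.6%, against 16.8% of tested genes), chromosome I 10, chromosomes III and V 8 each and chromosome II 4. Levels covered a wide range in each strain, with means between 2.87 and 596 FPKM in *age-1; gas-1*, 3.00 and 699 in *gas-1* and 3.05 and 824 in wt, in each case for *coh-4* and *cyb-3*. The spread within strains was small, with a median coefficient of variation over the genes of 5.96% in *age-1; gas-1*, 6.89% in *gas-1* and 7.51% in wt, and the highest value was 25.7% for *fbf-2* in wt. The median SE of a fold change was 0.063 for the 42 genes and 0.094 for all genes tested. The p-values set each strain difference against the spread of these 15 libraries within strains, pooled over the 3 strains. Other scaling moved the reference point for all genes. Median-of-ratios scaling changed the median of all genes in *gas-1* compared to wt to 0.014, and quantile normalization to -0.076. In double mutants compared to wt these medians were 0.023 and -0.12, and the number of the 42 genes that fell was 42 and 38.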

How the data were processed

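Polyadenylated RNA of 15 libraries, 5 biological replicates of each strain, was prepared from 100 ng of RNA with a stranded kit and sequenced as 50-bp single reads. The authors aligned and assigned the reads and deposited 1 table of FPKM per library. The submitters' processing notes name the aligner STAR 2.4.0h, the programs Cuffdiff and Cufflinks 2.1.1, and FastQC 0.10.1 beside CASAVA 1.8.2. The genome build is not given in the sources used here, and no read totals come with FPKM, so the depth of a value is unknown. Coordinates and overlaps come from the WBcel235 annotation, matched by gene identifier.

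Strains were taken from the sample labels. The 11648 of 20483 genes that reached 1 FPKM in 5 or more libraries were tested on log2(FPKM + 0.1) with limma 3.58.1 (R 4.3.3) in 1 fit of the 3 strains, with a variance trend and Benjamini-Hochberg adjustment over all genes tested. The pseudocount makes fold changes of low genes smaller than they are. Tables and plots were made with Python 3.11.15, pandas 2.3.3 and matplotlib 3.10.9. The genes and the lists were chosen with earlier results of these data known, so no list was tested as a set. Values by library are given for the gene with the smallest adjusted p in each group and comparison and for near-copies (19 genes), and from every other list at most the 2 genes with the smallest adjusted p per comparison were named. Alternatives changed the pseudocount, filter, scaling, variance model, samples, replicate block and FDR, and left out each library in turn.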

Additional observations from a re-analysis of the deposited data

Results flagged for a closer look

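For each of the 42 genes and 3 strains (126 groups of 5 libraries), the gap between an extreme library and its nearest neighbor was divided by the range of the group, and 14 groups exceeded 0.71, Dixon's critical value for 5 values. Chance flags about 1 group in 20, which would be 6.3 groups. Replicate 3 of wt was the highest library in 8 of them, for 2 MCM helicase genes, *mcm-6* (456 FPKM against 358 to 381 in the other wt libraries, ratio 0.743) and *mcm-7* (106 against 78 to 85, ratio 0.72), for *cdc-6* (43.7 against 38.3 to 39.5, ratio 0.751) and *rnr-1* (220.0 against 169 to 181, ratio 0.745), and for *cyb-1* (825 against 634 to 653, ratio 0.888), *cyb-2.2* (364 against 288 to 306, ratio 0.742), *cdk-1* (14.4 against 12.6 to 12.9, ratio 0.834) and *plk-1* (409 against 345 to 355, ratio 0.843). This library also had the lowest sperm transcripts of all.

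Replicate 5 of *gas-1* was the lowest library for *syp-4* (41.6 FPKM against 48.4 to 50.2 in the other *gas-1* libraries, ratio 0.803), *zim-2* (4.77 against 5.55 to 5.88, ratio 0.724) and *spo-11* (5.55 against 6.25 to 6.40, ratio 0.832). The other 3 were *air-1*, lowest in the fourth *age-1; gas-1* library (115 against 125 to 129, ratio 0.715), *htp-2*, highest in the first (18.4 against 16.7 to 17.2, ratio 0.719), and *spo-11*, highest in wt replicate 5 (9.23 against 7.83 to 8.21, ratio 0.712).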

How the results depend on the processing

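No fold change of the 42 genes that passed the test in the main fit reversed its direction under any alternative. The number that rose in *gas-1* compared to wt was 0, and 0 to 1 when 1 library was left out: 1 without wt replicate 3 (*pcn-1*) and 1 without wt replicate 4 (*htp-2*). It was also 1 (*pcn-1*) in the 11 libraries left without the 4 apart in sperm transcripts. After median-of-ratios scaling of all libraries, the fold changes of all 42 genes in *gas-1* compared to wt were below 0. The number that fell in double mutants compared to *gas-1*, 21, was 13 after median-of-ratios scaling, 6 at 1% FDR and 8 to 28 when 1 library was left out. Over all genes tested 17% fell after median-of-ratios scaling, 12.2% at 1% FDR and 16.3% to 22.8% when 1 library was left out. The numbers that fell in *gas-1* (23) and in double mutants (38) compared to wt stayed within 1.5 times of these values in every alternative, at 21 to 33 and 34 to 42. Replicate numbers did not pair the samples (correlations of same-numbered libraries between -0.76 and 0.79, and not every library correlated best with its own number). With the replicate block the numbers that fell were 23, 16 and 38. FPKM hold no read totals, so counting error could not be separated from the spread of libraries. Median-of-ratios scaling moved the median fold changes of the 42 genes to -0.31 in *gas-1* and -0.46 in double mutants compared to wt.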
